A study of Drosophila melanogaster with 6 samples.

Results

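Fatty acyl-CoA reductases (FARs) are the enzymes that convert activated fatty acids into fatty alcohols. Their mRNA was measured here in the heads of flies fed with normal diet (ND) or high-fat diet (HFD). The gene family was taken by name, from a list of 9 names that stand for 8 genes, because CG1443 is an older name of wat. The FlyBase identifiers of 6 of these 8 genes were found among the 11922 identifiers of the series: CG1441, CG4020, CG5065, CG8303, CG8306 and Sgp, which is listed under its older name CG13091. The remaining genes, wat and FarO, had no row under their identifiers and were not analysed here. Of the 6 genes with a row, 5 were above 0 FPKM (fragments mapped to a gene, scaled to its length in kb and to the sample's mapped fragments in M) in all 6 samples, and Sgp was listed at 0 in every sample. CG1441 was chosen by its FPKM values, which were higher on HFD in these same samples, so its difference between the diets, and its contrast with the rest of the family, are given as a description with no test.

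The flies were wild-type virgin females aged 5 days. The study names Oregon-R as the wild-type strain of its locomotion assays and gives only wild-type for the sequenced heads. The flies were kept for 5 d on ND, or on HFD made by adding coconut oil to ND at 20%. Each diet had 3 samples of poly(A) RNA, each from the heads and associated tissues of a pool of 25 flies. The study describes the pools as biological replicates, and the labels do not tell whether they came from separate cultures, so the p-values measure the spread between these pools.

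FARs use NADPH to reduce a fatty acyl-CoA to a fatty alcohol by way of an aldehyde. The alcohols serve as building blocks of waxes and ether lipids, and in insects very long-chain aldehydes are turned into cuticular hydrocarbons by cytochrome P450 enzymes of the 4G group, a step that takes place in oenocytes. In *Drosophila*, wat (waterproof) is known for the gas filling and waterproofing of the larval airways and FarO for its role in oenocytes. CG1441, CG4020, CG5065, CG8303 and CG8306 are annotated as FARs from their sequence.

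The estimated depth lay between 5.29 and 11.77 M fragments per sample. ND replicate 3 stood apart from the rest, with correlations of log2(FPKM + 1) across all genes of 0.842 to 0.92 with the other samples. HFD replicate 2 followed with 0.934 to 0.954, whereas the other pairs of samples reached 0.971 to 0.979. ND replicate 3 also lacked digestive protease mRNA from the gut, with a summed level over 27 protease genes of only 2.75 FPKM, while the other 5 samples held 6348 to 21879 FPKM. Markers of head tissue were present throughout: the summed level of 9 neuron and photoreceptor genes was 20939 to 29822 FPKM on ND and 23317 to 26880 FPKM on HFD, and that of 5 glial genes was 960 to 1228 FPKM on ND and 1056 to 1192 FPKM on HFD. Of the 8 oenocyte markers listed, 4 had a row. Among those, eloF was at 0 in all samples, Fad2 at 0 to 0.186 FPKM and the hydrocarbon-forming P450 Cyp4g1 at 0.0373 to 1.13 FPKM, so the defining oenocyte transcripts with a row were at or near 0 in these heads, and Cpr, a P450 partner present in most cells, was at 113 to 135 FPKM.

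The family was dominated by CG5065. Its level was 257, 196 and 248 FPKM in the 3 ND samples and 218, 221 and 276 FPKM in the 3 HFD samples. The diets overlapped, with means of 233 ± 33.0 FPKM on ND and 238 ± 32.6 FPKM on HFD (SD, n = 3 each). CG8306 came next in level, at 65.9, 53.7 and 59.0 FPKM on ND and 67.5, 68.0 and 73.7 FPKM on HFD. Each HFD sample of CG8306 was above each ND sample, although the highest ND sample and the lowest HFD sample were close together.

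Next in the order was CG1441. It was at 19.1, 17.9 and 25.6 FPKM on ND and at 55.3, 66.8 and 64.1 FPKM on HFD. The lowest HFD sample thus lay far above the highest ND sample. CG8303 was lower still, at 8.07, 5.59 and 6.17 FPKM on ND and 16.6, 19.7 and 8.16 FPKM on HFD. For this gene HFD replicates 1 and 2 were high, while HFD replicate 3 was barely above ND replicate 1. CG4020 was the lowest of the 5 expressed members, at 2.38, 1.66 and 1.61 FPKM on ND and 1.67, 1.94 and 2.53 FPKM on HFD, and its diets overlapped.

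**Figure D1:**
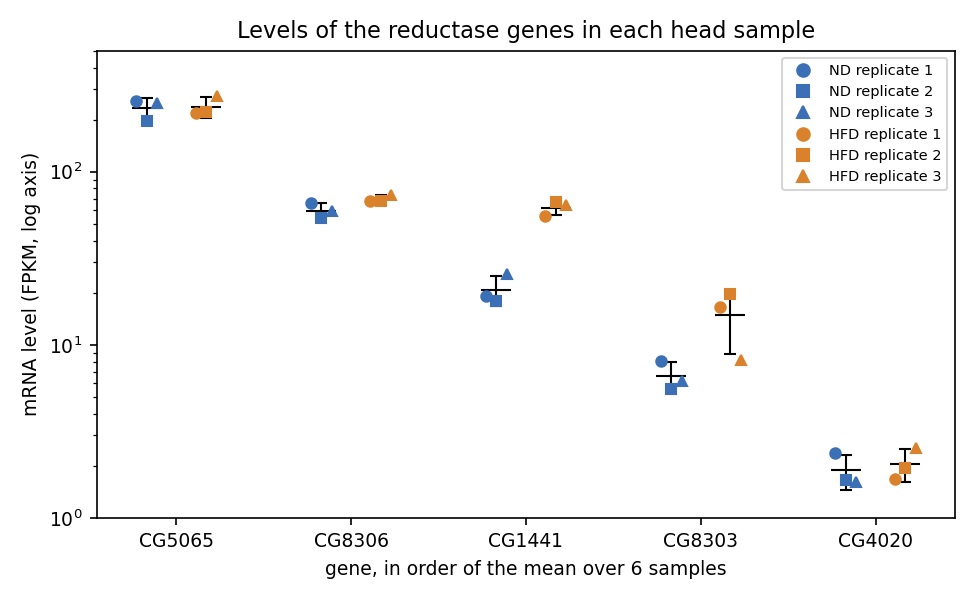
Level of each of the 5 expressed FAR members in FPKM on a log axis, with a symbol for each sample (ND blue, HFD orange) and a black bar with whiskers for the mean and SD of each diet (n = 3 each). CG1441 was between 17.9 and 25.6 FPKM on ND and between 55.3 and 66.8 FPKM on HFD, whereas the symbols of CG5065 and CG4020 overlapped between the diets.

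The order of the levels, CG5065, CG8306, CG1441, CG8303 and CG4020, was the same in 6 of 6 samples. FPKM is scaled to gene length, so that these levels can be set side by side. Ranges over all 6 samples were apart for CG5065 and CG8306 and for CG8303 and CG4020. They overlapped for CG8306 and CG1441 and for CG1441 and CG8303. The number of fragments behind these levels was estimated at 3539 or more per sample for CG5065, 796 to 1917 for CG8306, 271 to 1408 for CG1441, 99 to 325 for CG8303 and 18 to 56 for CG4020. Relative to the level, counting error was therefore greatest for CG4020. For Sgp, 3 fragments would correspond to 0.142 to 0.330 FPKM depending on the sample and transcript. Its listed 0 therefore does not exclude a lower level than this.

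CG1441 was 2.98 times higher on HFD, with a mean of 62.1 ± 6.03 FPKM against 20.8 ± 4.14 FPKM on ND (SD, n = 3 each). On the log2(FPKM + 1) scale the difference was 1.54. A difference at least this large and upward was found in 54 of the 8362 genes tested, which is 0.646%. All HFD samples above all ND samples, together with a ratio of mean FPKM over 2, was found in 0.729% of all genes. These shares describe how the gene was chosen and are no test of it. Bulk FPKM cannot tell more cells that express CG1441 apart from more CG1441 mRNA per cell.

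Without ND replicate 3, which lacked protease mRNA, the log2 difference of CG1441 was 1.69, and without both ND replicate 3 and HFD replicate 2 it was 1.64. With the summed protease level as a term in the fit, which mostly sets ND replicate 3 apart, it was 1.66. These values describe the same samples by which CG1441 was chosen, and the part of library composition in its difference was not tested. The summed level of the fat body markers was also higher on HFD. Of the 8 listed, 6 had a row, and together they were at 25566 to 33311 FPKM on ND and 34907 to 38553 FPKM on HFD, with no overlap. Most of this sum came from the yolk protein genes. Yp2 and Yp3 had all HFD samples above all ND samples, while Yp1, the highest of them, overlapped at 14301 to 17336 FPKM on ND and 15082 to 17903 FPKM on HFD. Lsp2, a storage protein, was at 183 to 571 FPKM on ND and 63.0 to 125 FPKM on HFD, so that it was lower on HFD, and the larval fat body proteins Fbp1 and Fbp2 were near 0 at 0 to 0.362 FPKM in all samples. None of the 4 markers high enough to test had an adjusted p under 0.05 in limma. The part of fat body RNA in the CG1441 difference was not tested.

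The other expressed members were compared between the diets with limma, with p-values adjusted over all 8362 genes. None of the 4 had an adjusted p under 0.05, against 0.0478% of all genes (4 genes, of which 2 were higher and 2 lower on HFD, 0.0239% each). Without adjustment, p was under 0.05 for 1 of the 4, CG8303, which was higher on HFD, and 3.11% of all genes were higher on HFD by that rule. CG8303 also had a ratio of mean FPKM over 2, and both conditions together were met upward by 0.682% and downward by 0.431% of all genes. All HFD samples were above all ND samples for CG8303 and CG8306, which is 2 of the 4 members, against 4.54% of all genes. For no member were all HFD samples below all ND samples, which was the case in 8.07% of all genes. The limma test thus called no change among these members.

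CG8303 differed by 0.99 on the log2 scale (SE 0.33, 95% interval 0.19 to 1.79), with an adjusted p of 0.644 in limma. Its means were 14.8 ± 5.98 FPKM on HFD and 6.61 ± 1.30 FPKM on ND (SD, n = 3 each), a ratio of 2.24. The size of this difference depended on HFD samples 2 and 3. It was 0.75 without HFD replicate 2 and 1.34 without HFD replicate 3, with an adjusted p over 0.05 in both. The exact permutation p of CG8303 was 0.1, two-sided, the smallest that 3 samples against 3 allow.

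CG8306 differed by 0.23 (SE 0.097, 95% interval −0.01 to 0.47), with an adjusted p of 0.748 in limma and an exact permutation p of 0.1. The difference of CG5065 was 0.03 (SE 0.15, 95% interval −0.34 to 0.40), with an adjusted p of 0.998 in limma. This interval corresponds to a fold between 0.792 and 1.32. CG4020 differed by 0.08 (SE 0.17, 95% interval −0.35 to 0.51), with an adjusted p of 0.998 in limma. The sign of the CG5065 and CG4020 differences changed when single samples were left out.

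**Figure D2:**
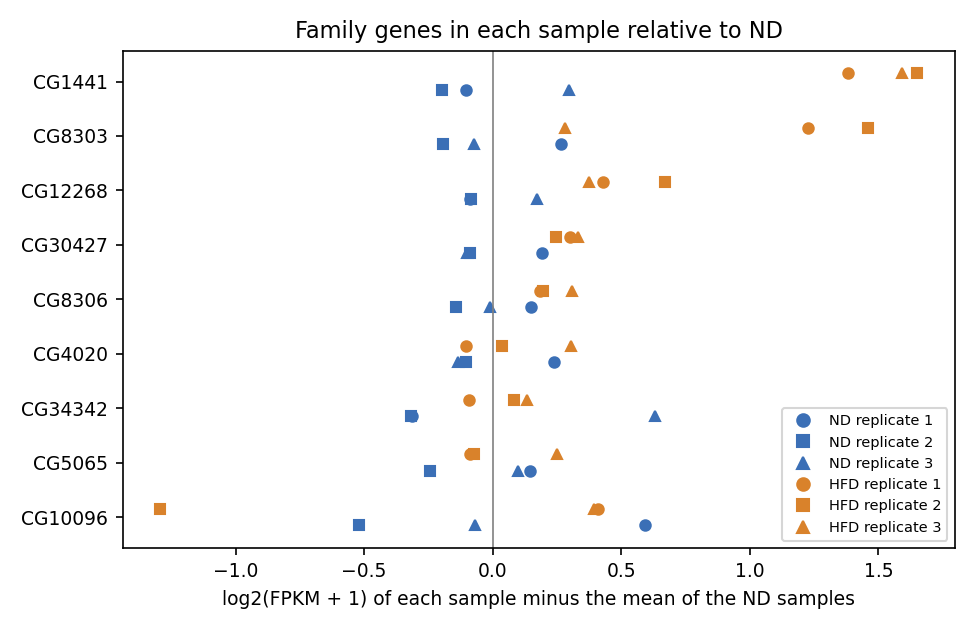
Level of the 9 FAR genes tested in each sample on the log2(FPKM + 1) scale, given as the difference from the mean of the 3 ND samples of that gene, with ND in blue, HFD in orange and a symbol shape for each replicate. The HFD symbols of CG1441 lay apart from its ND symbols, HFD replicate 3 of CG8303 lay beside ND replicate 1, and the genes are ordered by their mean difference, from 1.54 for CG1441 to −0.16 for CG10096.

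The level of CG1441 was next set against that of each other member within the same sample, which removes any scaling that acts on a whole library. CG1441 was at 29.0 to 43.4% of the CG8306 level in the ND samples and at 81.9 to 98.2% in the HFD samples. Hence on HFD it nearly reached the gene above it in the order of levels. Relative to CG5065 it was at 7.46 to 10.3% on ND and 23.3 to 30.3% on HFD, and again the diets did not overlap. Relative to CG8303 it was at 237 to 415% on ND and 333 to 785% on HFD, and here the diets overlapped, CG8303 itself being higher in HFD replicates 1 and 2.

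Summed over the 15 family genes with a row (the 6 members and 9 further FAR genes), the level of FAR mRNA was 361 ± 48.4 FPKM on ND and 432 ± 35.8 FPKM on HFD (SD, n = 3 each). In single samples the sum was 397, 306 and 380 FPKM on ND and 407, 416 and 473 FPKM on HFD, so that the lowest HFD sum was just above the highest ND sum. Without CG1441 the sums were 378, 288 and 354 FPKM on ND and 352, 349 and 409 FPKM on HFD, and the diets overlapped.

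CG1441 made up 4.81, 5.83 and 6.73% of the family total in the ND samples and 13.6, 16.1 and 13.6% in the HFD samples. Its mean share was 5.79 ± 0.959% on ND and 14.4 ± 1.45% on HFD (SD, n = 3 each). The share of CG5065 was 64.6 ± 0.734% on ND and 54.9 ± 2.88% on HFD, although its level in FPKM was much the same on both diets. CG8306 held 16.5 ± 1.01% on ND and 16.2 ± 0.529% on HFD, and CG8303 held 1.83 ± 0.203% on ND and 3.51 ± 1.58% on HFD. Since the shares of a sample add up to the whole, a larger share of CG1441 lowers the summed share of the others, though not each of them.

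**Figure D3:**
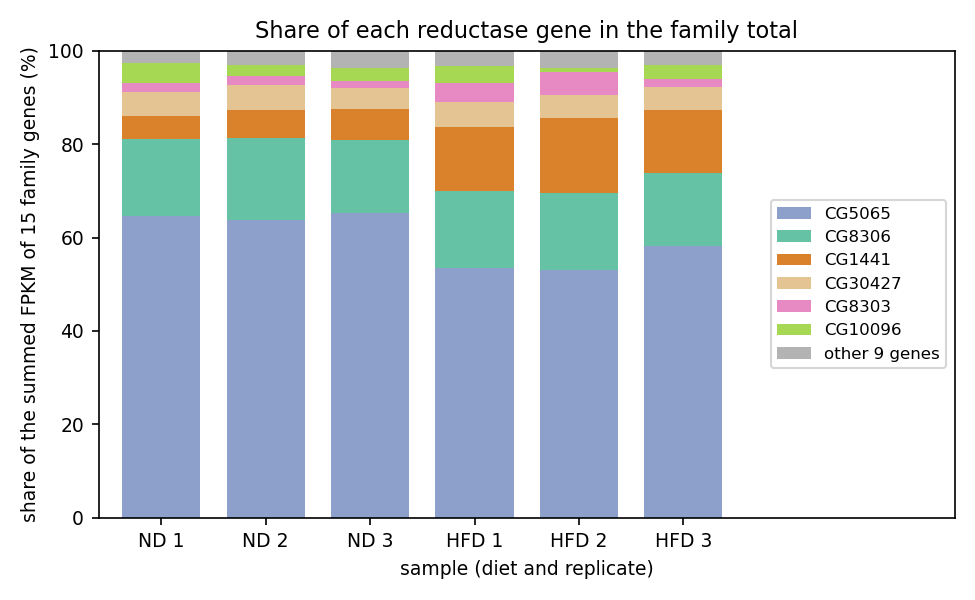
Share of each FAR gene in the summed FPKM of the 15 family genes with a row, in percent, as a stacked bar for each of the 6 samples, with the 9 genes of lowest share joined. The CG1441 segment was 4.81 to 6.73% in the ND samples and 13.6 to 16.1% in the HFD samples, while CG5065 took the largest segment in every sample.

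The genes were then placed on the BDGP6 annotation. CG1441 lies on chromosome arm 2R at 9899018 to 9903287 on the minus strand and has 2 annotated transcripts of up to 6 exons. CG8306 (2R, 16589518 to 16594646, minus strand), CG8303 (2R, 16595028 to 16604373, minus strand) and CG5065 (2R, 16607654 to 16624894, plus strand) lie next to each other elsewhere on the same arm. The gap between CG8306 and CG8303 is 381 nt, that between CG8303 and CG5065 is 3280 nt, and the whole cluster spans 35377 nt. CG4020 lies on the X chromosome (5905746 to 5908001, plus strand) and Sgp on 2L (8519690 to 8521809, plus strand).

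Whether the 3 adjacent reductase genes differ from each other in their response was not tested, and their 95% intervals overlap. CG8303, in the middle, differed by 0.99 on the log2 scale, while CG8306 on one side differed by 0.23 and CG5065 on the other by 0.03. Of the genes that flank the cluster, Dolk, which encodes dolichol kinase, was at 22.8 ± 1.19 FPKM on ND and 21.1 ± 4.18 FPKM on HFD (SD, n = 3 each), and Alk, a receptor tyrosine kinase gene, was at 12.4 ± 2.56 and 12.5 ± 1.68 FPKM. The diets overlapped for both. CG5089 lies in an intron of CG8303 on the opposite strand and was at 0 in the ND samples and at 0.0132, 0.113 and 0.0978 FPKM in the HFD samples. All of these were below 0.142 FPKM, the lowest value that 3 fragments would give for Sgp. CG5089 was too low to test. The annotated exons of CG8303 and CG5089 do not overlap. The neighbours of CG1441 had no row and were not analysed here.

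**Figure D4:**
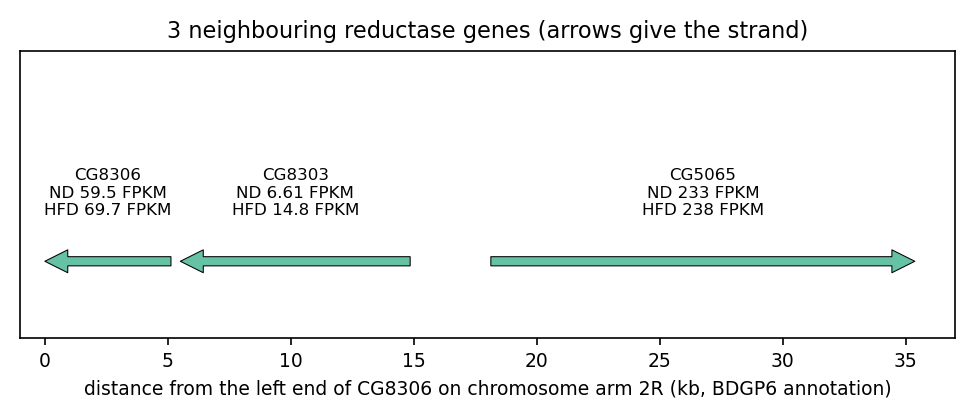
Map of the 3 adjacent FAR genes on chromosome arm 2R, drawn to scale along the distance in kb from the left end of CG8306, with arrows for the strand and the mean level of each diet (n = 3 each) above each gene. CG8303 was at 6.61 FPKM on ND and 14.8 FPKM on HFD, between CG8306 at 59.5 and 69.7 FPKM and CG5065 at 233 and 238 FPKM.

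Beyond the listed members, 9 more genes of the FAR family had a row. CG14893, CG17560 and CG17562, which are adjacent on 3R, were listed at 0 in all samples, while CG4770 and CG10097 had values of at most 0.373 FPKM and were not tested. For the other 4 no adjusted p was under 0.05 in limma, and the unadjusted p was under 0.05 for 2, CG12268 and CG30427, against 3.11% of all genes in that direction. Their median log2 difference was 0.17, against −0.03 over all genes tested, and the same 2 genes had all HFD samples above all ND samples, against 4.54% of all genes.

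CG12268 was at 5.78, 5.79 and 7.10 FPKM on ND and 8.69, 10.5 and 8.32 FPKM on HFD, with no overlap. Its log2 difference was 0.49 (SE 0.12, adjusted p = 0.473 in limma). CG30427 was at 20.5, 16.7 and 16.6 FPKM on ND and 22.2, 21.3 and 22.7 FPKM on HFD. The diets were again apart, by a narrow margin, and the log2 difference was 0.29 (SE 0.10, adjusted p = 0.650 in limma). CG34342 overlapped between the diets at 2.00 to 4.78 FPKM on ND and 2.50 to 3.09 FPKM on HFD, with a log2 difference of 0.04 (adjusted p = 0.998 in limma). CG10096 varied widely among the samples of a diet, at 17.1, 7.37 and 10.4 FPKM on ND and 14.95, 3.91 and 14.8 FPKM on HFD. Its log2 difference was −0.16 (SE 0.54, adjusted p = 0.998 in limma). CG10096 and CG10097 carry the same span in the annotation, so the split of reads between them is uncertain.

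Across the 8 family genes tested other than CG1441, the median log2 difference was 0.15, with a range from −0.16 to 0.99. The difference was above 0 in 7 of the 8, compared with 42.8% of all genes. Without HFD replicate 3 it was above 0 in only 4 of the 8, against 46.5% of all genes, with a median of 0.09. The share of all genes also depended on ND replicate 3. Without that sample it was 51.4%, with 7 of the 8 family genes above 0. All HFD samples were above all ND samples in 4 of the 8, against 4.54% of all genes, and all below in none, against 8.07%. The members and lists were chosen with earlier results of these data known, so these shares are a description and no test.

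Genes that supply or use the acyl chains of FARs were taken from a list of 50 genes, of which 39 had a row. Those without a row were ACC, FASN1, FASN2, FASN3, hll, Fatp2, sit, spidey, Desat1, Desat2 and Agps, and they were not analysed here. Of the 39 genes with a row, 10 were listed at 0 in all samples and 26 were high enough to test. None of the 26 had an adjusted p under 0.05 in limma. The log2 difference was above 0 for 17 and below 0 for 9, against 42.8% of all genes above 0. The median was 0.05 against −0.03 over all genes. Without ND replicate 3 the difference was above 0 for 15 of the 26, against 51.4% of all genes. With the protease level as a term in the fit it was above 0 for 14, against 50% of all genes. With any other single sample left out it was above 0 for 15 to 17, against 37.3 to 46.5% of all genes. Without adjustment, p was under 0.05 for 5 that were higher on HFD and 1 that was lower, against 3.11% and 3.6% of all genes. As this list too was chosen with earlier results of these data known, its counts are a description.

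All 5 of these higher genes belonged to fatty acid elongation and desaturation, the steps that lengthen acyl chains and place double bonds in them. Of the 16 genes tested in this list, 11 were above 0 and 5 below, against 42.8% of all genes above 0. Without ND replicate 3 the counts were 9 and 7, against 51.4% of all genes above 0. With the protease level as a term they were 8 and 8, against 50%. That term mostly sets ND replicate 3 apart, so these checks are not separate. With any other single sample left out, 10 to 13 of the 16 were above 0, against 37.3 to 46.5% of all genes. With median-ratio scaling 11 were above 0, against 49.5%. CG33110, annotated as an elongase, was at 25.6, 23.3 and 35.0 FPKM on ND and 63.9, 67.5 and 43.3 FPKM on HFD. HFD replicate 3 was the lowest of the HFD samples, as it was for CG8303, and the log2 difference was 1.03 (SE 0.22, adjusted p = 0.443 in limma). Elovl7, another elongase gene, was at 49.4, 49.6 and 58.9 FPKM on ND and 82.7, 78.7 and 73.0 FPKM on HFD. Its diets were clearly apart, with a log2 difference of 0.56 (SE 0.10, adjusted p = 0.391 in limma). The limma adjusted p was 0.0909 without ND replicate 3 and 0.0469 with the protease level as a term. Since that term mostly sets ND replicate 3 apart, it is no separate adjustment for gut RNA. CG5326, likewise annotated as an elongase, was at 32.6, 27.4 and 33.4 FPKM on ND and 45.8, 54.1 and 35.0 FPKM on HFD, with a log2 difference of 0.50 (SE 0.18, adjusted p = 0.650 in limma).

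The remaining genes of the 5 were chosen after their values were seen. They were Sc2, the enoyl-CoA reductase that closes the elongation cycle, with a log2 difference of 0.24 (adjusted p = 0.523 in limma), and CG9747, annotated as a desaturase, with 0.36 (adjusted p = 0.650 in limma). The largest downward differences in this list were small, at −0.14 for the elongase Baldspot, −0.10 for the 3-hydroxyacyl-CoA dehydratase Hacd2 and −0.07 for CG30008 (limma adjusted p = 0.942, 0.988 and 0.998).

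Fatty acid synthesis and activation had 7 genes tested, with 4 above 0, 3 below 0 and a median of 0.01, against 42.8% of all genes above 0. ACC and the fatty acid synthase genes FASN1, FASN2 and FASN3 had no row, so these counts do not describe fatty acid synthesis as a whole. Acsf2, an acyl-CoA synthetase, was at 27.8, 24.2 and 23.8 FPKM on ND and 19.2, 22.8 and 16.4 FPKM on HFD. It was the 1 of the 26 pathway genes with all HFD samples below all ND samples, against 8.07% of all genes, whereas 6 of the 26 had all HFD samples above, against 4.54%. Its log2 difference was −0.37 (SE 0.14, adjusted p = 0.680 in limma). ATPCL, the ATP citrate lyase that makes cytosolic acetyl-CoA, differed by −0.26 and bgm, a very long-chain acyl-CoA synthetase, by −0.24 (limma adjusted p = 0.816 and 0.833). The differences of the acyl-CoA synthetase Acsl and the fatty acid transport proteins Fatp1 and Fatp3 were 0.15, 0.11 and 0.40 (limma adjusted p = 0.842, 0.931 and 0.942).

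For hydrocarbon oxidation, Cyp4g15, a P450 of the 4G group, differed by 0.05 and Cpr, the P450 reductase, by 0.09 (limma adjusted p = 0.998 and 0.958). Gnpat, which catalyses the first step of ether lipid synthesis, differed by −0.07 (limma adjusted p = 0.986). The levels of these 3 genes overlapped between the diets.

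**Figure D5:**
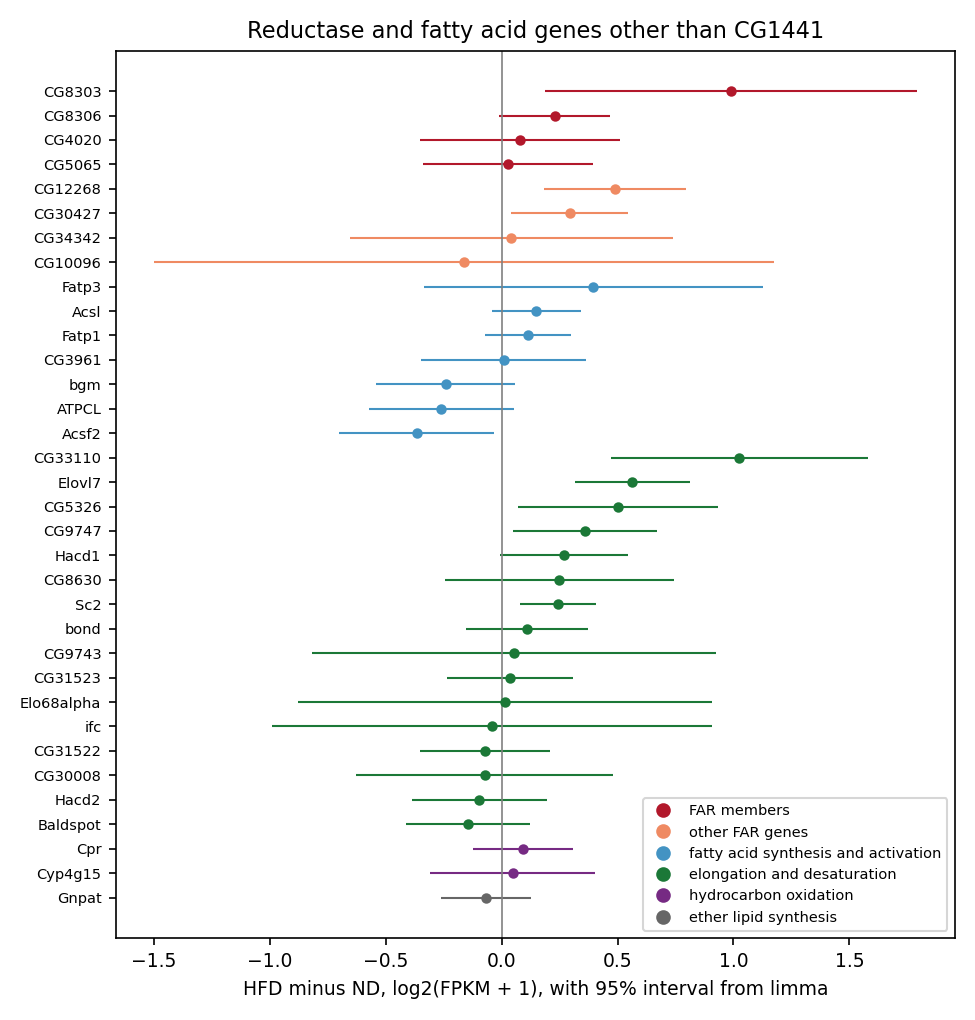
Difference between HFD and ND on the log2(FPKM + 1) scale for the 26 tested genes that supply or use acyl chains and the 8 tested FAR genes other than CG1441, coloured by list, with a point for the estimate and a line for its 95% interval from limma. Among the pathway genes CG33110 at 1.03 and Elovl7 at 0.56 lay farthest to the right and Acsf2 at −0.37 farthest to the left, and none had an adjusted p under 0.05.

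The genes most like CG1441 were found from the Pearson correlation of log2(FPKM + 1) over the 6 samples, among the 6473 genes whose mean reached 5 FPKM. With 6 samples in 2 groups, a high correlation largely reflects a difference between the diets. The highest was that of Obp56d, an odorant-binding protein gene (r = 0.998), at 412, 382 and 535 FPKM on ND and 1022, 1174 and 1074 FPKM on HFD. ND replicate 3 was the highest ND sample and HFD replicate 2 the highest HFD sample for both genes. Ect3 (r = 0.991), CG7778 (0.989), CG18659 (0.988) and CG8008 (0.985) followed, with ratios of mean FPKM of 1.75, 1.91, 1.10 and 1.40. The ratio of CG18659 shows that the correlation does not measure the size of a difference. Among the FAR genes CG12268 was the most like CG1441 (r = 0.946, rank 45).

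CG8303 was looked at in the same way, which was decided after its values were seen. Its correlation with CG1441 was 0.758, rank 271, so that many genes followed CG8303 more closely than CG1441 did. The 5 genes most like it were CG18473 (r = 0.993), CG42821 (0.984), CG6429 (0.981), Mtk (0.978) and PGRP-SD (0.978). Mtk encodes the antimicrobial peptide metchnikowin and PGRP-SD a peptidoglycan recognition protein. Mtk was at 147, 137 and 95.7 FPKM on ND and 1009, 1739 and 206 FPKM on HFD, so that HFD replicates 1 and 2 were high and HFD replicate 3 was close to the ND samples. PGRP-SD was at 54.9, 45.9 and 51.9 FPKM on ND and 136, 163 and 79.0 FPKM on HFD, in the same order among the HFD samples. The part of immune gene levels in the CG8303 difference was not tested. Among the pathway genes, CG5326 (r = 0.969, rank 11), CG9747 (0.963, rank 16) and CG33110 (0.897, rank 64) also followed CG8303 closely. Others ran the opposite way, such as bgm (r = −0.909), ATPCL (−0.861) and Baldspot (−0.785), so the pathway genes did not move together with CG8303.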

How the data were processed

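Diet and replicate number were read from the labels. The authors sequenced poly(A) RNA, kept uniquely mapped reads and deposited FPKM values (RPKM in the series description) on 12138 rows with 11922 FlyBase identifiers. HISAT is named in the submitters' processing notes. Its version, the genome build, the annotation and the use of strand are not given in the sources used here. Where an identifier stood on several rows (101 identifiers, 0 of them FAR genes) the first was kept. Symbols of 11794 identifiers and BDGP6 coordinates were taken from reference tables.

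The diets were compared on the log2(FPKM + 1) scale with limma (version 3.58.1, R 4.3.3, eBayes with trend) in the 8362 genes that averaged 0.5 FPKM or more, with Benjamini-Hochberg adjustment. This scale understates the change of low genes. Two-sided exact permutation tests were added for single genes. The fit was tested on simulated data. Python 3.11.15 with pandas 2.3.3, numpy 2.4.6 and matplotlib 3.10.9 served for tables and plots.

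Sample depth is an estimate from the spacing of low FPKM values in 6033 genes with 1 annotated transcript. Only 64.1 to 72.0% of such values came within 0.15 of whole fragments (30.0% by chance), so no count test was made and fragment numbers are approximate.

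All members with values were named. From the other lists, genes with an adjusted p under 0.05 or, failing those, up to 3 with the largest rise and fall were named, as were the 5 genes most like CG1441 and the most similar FAR gene. Members and lists were chosen with earlier results of these data known. Alternatives were another pseudocount, filter, scaling and moderation, a replicate block, summed rows, samples left out and, added after seeing the data, a protease covariate and a ratio of means.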

Additional observations from a re-analysis of the deposited data

How the results depend on the processing

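CG1441 was higher on HFD under every alternative run, with a log2 difference between 1.44 and 1.69. All these runs reuse the samples by which it was chosen. The filter, the moderation, the replicate block and the summed rows could not change its value. None of the other FAR genes had an adjusted p under 0.05 in limma under any alternative (0 to 0 with each sample left out in turn). The signs of small differences turned, however. With single samples left out, the log2 difference ranged from −0.093 to 0.10 for CG5065, −0.033 to 0.20 for CG4020, −0.45 to 0.40 for CG10096, −0.12 to 0.36 for CG34342, −0.28 to 0.045 for CG30008 and −0.046 to 0.20 for Cyp4g15. It was −0.025 for CG5065 with quantile normalization, and, without both ND replicate 3 and HFD replicate 2, 0.13 for CG5065, 0.37 for CG10096 and 0.094 for CG30008. The cause of these turns was not tested.

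The count of all genes at an adjusted p under 0.05 moved more: 2 higher and 2 lower became 5 and 2 with median-ratio scaling, 2 and 4 without a filter, 2 and 3 without the trend, 4 and 8 without ND replicate 3 and HFD replicate 2, and 24 and 21 with the protease covariate. With 1 sample left out there were 0 to 2 higher and 1 to 3 lower genes, with 0 higher without ND replicate 1, HFD replicate 1 or HFD replicate 2. For the pathway genes the count was 0 to 0 with 1 sample left out and 1 (Elovl7, log2 0.63) with the protease covariate.

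Deviations from the diet means correlated at −0.51 to 0.308 for same-numbered samples and at −0.461 to 0.554 for differently numbered ones. With means of only 3 samples per diet the deviations of a diet depend on each other. This check therefore cannot decide whether the numbers pair the samples. Adding the replicate block to the fit left 0 higher genes and 1 lower gene, and the log2 differences kept their values.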
